A study of Mus musculus with 36 samples.

Results

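Kidney RNA from ob mice given cadmium chloride at 2 mg/kg was compared here with kidney RNA from ob mice given 0.5 mg/kg, gene by gene and over all genes. The members were chosen by their labels alone: the 6 libraries labelled ob 2 mg/kg and the 6 labelled ob 0.5 mg/kg, which are 12 of the 36 libraries of the study. The other 24 libraries are ob controls and b6j kidneys at the same doses, again 6 to a group, and they entered the fit only to estimate the spread between libraries and to ask whether the step between the doses differed between the genotypes. In mouse genetics ob names an obese mouse that lacks working leptin, and b6j names its lean C57BL/6J background. All 36 libraries are labelled as kidney of strain C57BL/6, so the genotype and the dose are what the labels change. Sex, age, route and length of exposure are not given in the sources used here. The labels number the libraries without saying that each is a separate mouse, so the p-values measure the spread between these libraries. Reads from a whole piece of kidney cannot tell fewer cells of a type from less RNA in each cell, and this holds for every result that follows.

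Cadmium that reaches the kidney is taken up mainly by the proximal tubule, the part of the nephron that recovers sugar, amino acids and phosphate from the filtrate. In the cell it is bound by metallothioneins, small cysteine-rich proteins whose genes are switched on by metals through the factor MTF1. Cadmium also engages NRF2, a factor that raises genes for glutathione synthesis, conjugation and export, and with enough exposure it injures the tubule. Injured tubule cells are known to make the membrane protein KIM-1, encoded by Havcr1, and the secreted protein NGAL, encoded by Lcn2, and to lose transporters and metabolic enzymes.

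The 12 libraries held 26783936 to 33651340 reads assigned to genes. Levels are given as counts per 1000000 reads (CPM) after TMM scaling, a correction for the make-up of each library, and changes are log2 ratios of 2 mg/kg over 0.5 mg/kg with their standard error. The test was edgeR's quasi-likelihood test with Benjamini-Hochberg adjustment over all 18180 genes tested, and a gene is said to have risen or fallen where its adjusted p was under 0.05 both with all libraries and without replicate 5, unless a sentence says otherwise. Levels are not divided by gene length, so they compare libraries and not genes.

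Replicate 5 at 2 mg/kg stood apart. On the leading component of the 12 libraries, which held 43.6% of their variance, it lay at 167.6, and the other 11 lay between -33.1 and 13.3. Its correlation with the other 5 libraries of its group was 0.901 to 0.914, against 0.97 to 0.983 among those 5. The defining transporters of several nephron segments were low in it. Slc34a1, the main phosphate transporter of the proximal tubule, had 16.6 CPM in replicate 5, 3024.4 to 4450.6 CPM in the other 2 mg/kg libraries and 5079.2 to 6615.0 CPM at 0.5 mg/kg. Slc12a3, the salt transporter of the distal convoluted tubule, had 47.9 CPM in replicate 5, 916.2 to 1027.8 CPM in the other 5 and 1367.4 to 1596.8 CPM at 0.5 mg/kg. The other 11 libraries carried the markers of kidney at high levels, among them Lrp2, the proximal tubule's uptake receptor, at 1850.0 to 2747.7 CPM, against 292.7 CPM in replicate 5. RNA quality per library was not used here, and its part in these values was not tested. Counts of calls are therefore given with and without replicate 5, as are the log2 or fold changes printed for most genes in which it stood apart. A change given once is from all libraries unless its sentence says otherwise.

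**Figure D1:**
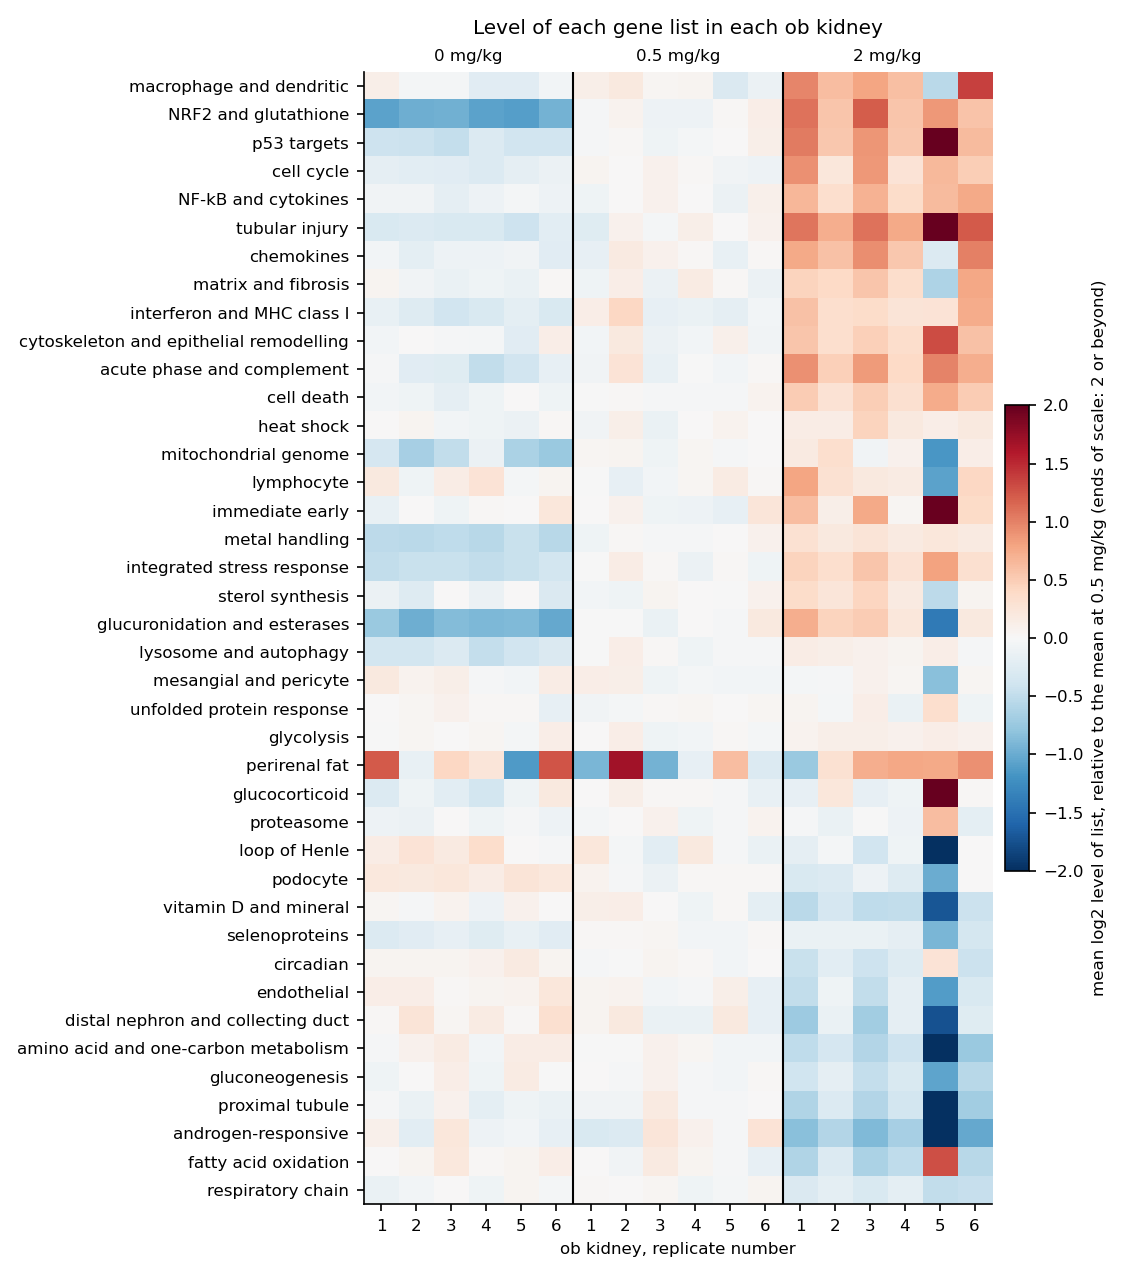
Mean log2 level of the tested members of each gene list (rows) in each ob library (columns, by dose and replicate number), as the difference from the mean of the 0.5 mg/kg libraries, in a colour scale that ends at 2 in either direction. In the column of replicate 5 at 2 mg/kg the proximal tubule list stood at -3.03 and the p53 targets at 2.2, each the far end of its group.

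With all 12 libraries 5406 genes were called, 29.7% of those tested, of which 2772 (15.2%) were higher and 2634 (14.5%) lower at 2 mg/kg. Without replicate 5 there were 5080, or 27.6%, of which 2460 (13.4%) were higher and 2620 (14.3%) lower. The same 4171 genes were called in the same direction in both, 1973 higher and 2198 lower. Changes of more than 2-fold in both were mostly upward, with 621 higher and 144 lower. Scaling by library size alone moved the median log2 change of all genes to 0.12, against 0.02 with TMM, and it gave 4303 higher and 1683 lower, or 71.9% higher against 51.3%. A fit of the 12 libraries alone called 1889 genes with replicate 5 and 4508 without it.

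**Figure D2:**
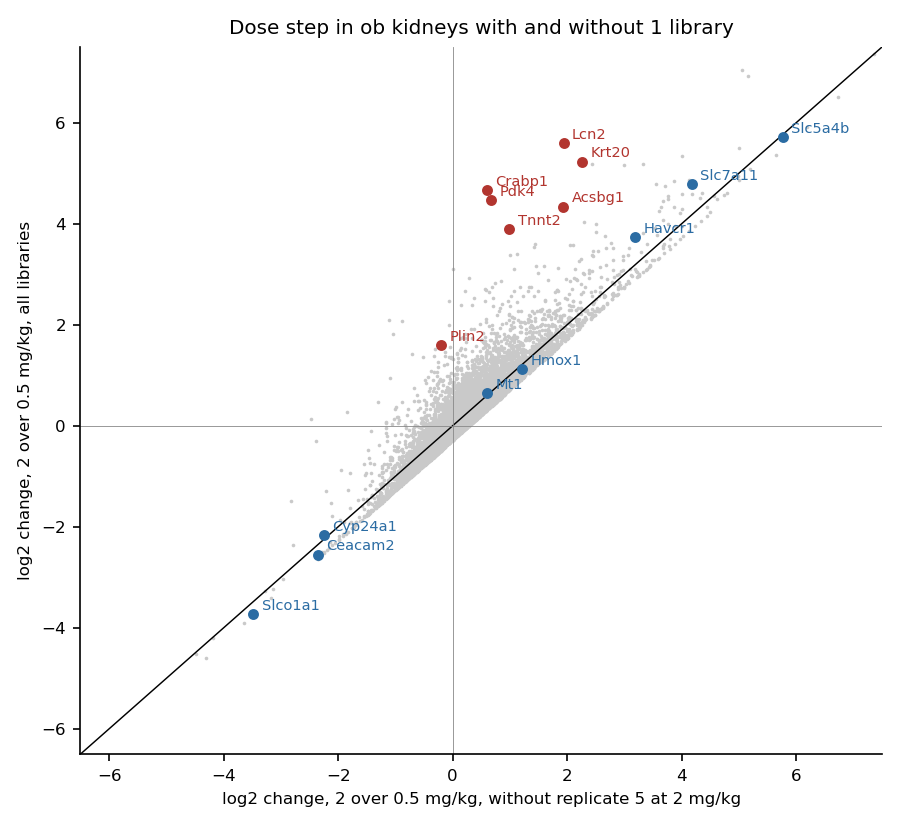
Log2 change of each tested gene at 2 mg/kg over 0.5 mg/kg in ob kidneys with all 12 libraries (y axis) against the same without replicate 5 (x axis), with the line of equal values and named genes marked. Lcn2 lies at 5.60 on the y axis and 1.94 on the x axis, far from the line, while Slc5a4b, at 5.71 and 5.77, lies on it.

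The genes whose change moved most when replicate 5 was left out include a regulator of fuel use and markers of injury. Pdk4, a kinase that turns cells from glucose to fat, had 20.3 to 33.4 CPM in the other 5 libraries at 2 mg/kg and 2156.2 CPM in replicate 5, against 10.8 to 22.7 CPM at 0.5 mg/kg. Its log2 change was 4.47 ± 0.84 with replicate 5 (adjusted p = 0.000157) and 0.67 ± 0.27 without it (adjusted p = 0.0639).

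Lcn2 was higher in every 2 mg/kg library than in any at 0.5 mg/kg, and replicate 5 set the size. It had 13.9 to 37.2 CPM in 5 libraries and 1558.2 CPM in replicate 5, against 4.67 to 7.26 CPM at 0.5 mg/kg, and its change was 48.4-fold with replicate 5 and 3.85-fold without it. Krt20, an epithelial keratin, had 4.38 to 13.2 CPM in 5 libraries and 360.1 CPM in replicate 5, against 0.207 to 3.67 CPM at 0.5 mg/kg. It was called either way, with log2 changes of 5.23 ± 0.88 and 2.26 ± 0.49. Crabp1, which binds retinoic acid, had 73.7 CPM in replicate 5 and at most 1.43 CPM in the other 11 libraries, and without that library its log2 change was 0.60 ± 0.76 (adjusted p = 0.61). Only Plin2, the coat protein of lipid droplets, was called in opposite directions: 1607.8 CPM in replicate 5, 90.8 to 109.1 CPM in the other 5, and 102.3 to 137.0 CPM at 0.5 mg/kg gave a log2 change of 1.59 ± 0.45 (adjusted p = 0.00766) with replicate 5 and -0.20 ± 0.06 (adjusted p = 0.0166) without it. Fitted to the 12 libraries alone, Plin2 was called neither with replicate 5 (adjusted p = 0.156) nor without it (adjusted p = 0.0587), and Crabp1 was not called with it (adjusted p = 0.0518).

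Among the metal-handling genes the metallothioneins rose by less than 2-fold between these doses. Mt1, on GRCm38 chromosome 8 at 94179082-94180327, had 3942.2, 4311.6 and 5414.0 CPM (lowest, median, highest) at 2 mg/kg, against 2025.7, 2928.2 and 3205.3 CPM at 0.5 mg/kg. All 6 libraries at 2 mg/kg were above all 6 at 0.5 mg/kg, and the ob controls, at 91.1 to 150.2 CPM, were far below both. The change between the doses was 1.57-fold (log2 0.65 ± 0.13, adjusted p = 0.000381) and 1.51-fold without replicate 5. Mt2 had 26.0, 28.9 and 38.6 CPM at 2 mg/kg, against 9.27, 17.1 and 19.8 CPM at 0.5 mg/kg, a rise of 1.87-fold. Of its exon bases 73.5% lie in Gm45774 on the opposite strand, and default counting without strand discards reads that fall on both, so its level is uncertain.

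The promoters of both metallothionein genes are shown because the metal-switched factor acts at short repeated elements in them. They run from 250 bases before to 50 after the start in RefSeq, build GRCm38.p6, at chr8:94178839-94179138 for Mt1 and chr8:94172368-94172667 for Mt2, both on the plus strand. Capitals mark matches to the core of the metal response element, TGCACNC or TGCGCNC, on either strand, of which Mt1 has 3 and Mt2 has 4. Such a match stands in 25.7% of the 32851 promoters of this length, and it describes letters and not binding.
Mt1: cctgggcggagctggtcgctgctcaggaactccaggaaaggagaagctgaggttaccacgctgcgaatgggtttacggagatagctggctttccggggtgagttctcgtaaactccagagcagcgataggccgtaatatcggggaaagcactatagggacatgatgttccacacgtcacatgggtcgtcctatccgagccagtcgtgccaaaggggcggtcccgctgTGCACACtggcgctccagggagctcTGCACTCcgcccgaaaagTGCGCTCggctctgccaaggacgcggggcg
Mt2: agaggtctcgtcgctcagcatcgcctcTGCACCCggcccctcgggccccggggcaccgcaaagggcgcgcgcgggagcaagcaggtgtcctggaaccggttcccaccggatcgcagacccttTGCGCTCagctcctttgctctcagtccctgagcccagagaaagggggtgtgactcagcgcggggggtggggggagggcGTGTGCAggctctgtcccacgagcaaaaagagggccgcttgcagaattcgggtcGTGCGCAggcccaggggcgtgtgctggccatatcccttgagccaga

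Of the 25 metal-handling genes tested, 10 were called higher and 4 lower with all libraries, and 9 and 3 without replicate 5, with a median log2 change of 0.32 and 0.27. The shares over all tested genes were 15.2% higher and 14.5% lower, and 13.4% and 14.3% without replicate 5. Slc39a8, encoding ZIP8, which carries zinc, manganese and cadmium into cells, had 10.6, 24.4 and 31.0 CPM at 2 mg/kg, against 41.3, 51.4 and 76.3 CPM at 0.5 mg/kg, with no overlap. It fell, with a log2 change of -1.18 ± 0.18 (adjusted p = 9.82e-06), or -1.02 ± 0.15 without replicate 5. Slc31a1, the copper importer CTR1, fell by 0.37 ± 0.07 on the log2 scale. Slc40a1, encoding the iron exporter ferroportin, had 136.3 to 190.1 CPM in 5 libraries at 2 mg/kg and 64.1 CPM in replicate 5, against 77.3 to 92.6 CPM at 0.5 mg/kg, and its rise was 1.73-fold with replicate 5 and 1.95-fold without it. Slc39a10, encoding the zinc importer ZIP10, had 18.2, 22.4 and 27.2 CPM at 2 mg/kg, against 12, 15.9 and 21.9 CPM at 0.5 mg/kg. The groups overlapped, and its log2 change of 0.39 ± 0.13 (adjusted p = 0.0208) was not called without replicate 1 at 2 mg/kg (0.32, adjusted p = 0.0628) or without replicate 1 at 0.5 mg/kg (0.31, adjusted p = 0.0717), nor with the 12 libraries alone (adjusted p = 0.104).

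The NRF2 and glutathione genes rose more widely. Of 39 tested, 32 were called higher and 0 lower, both with and without replicate 5, with a median log2 change of 0.75 and 0.74 beside 0.02 and 0.01 over all genes. In 19 of them every library at 2 mg/kg lay above every library at 0.5 mg/kg, which held for 4.36% of all tested genes. Without replicate 5 this was 29 members, beside 6.25% of all genes. Slc7a11, the cystine importer that feeds glutathione synthesis, had 5.96, 16.4 and 64.5 CPM at 2 mg/kg, against 0.0, 0.988 and 1.37 CPM at 0.5 mg/kg. Replicate 5 was the highest of its group, and the lowest of the other 5 was still over the 0.5 mg/kg range. The log2 change was 4.78 ± 0.58 (adjusted p = 4.44e-07), and 4.18 ± 0.51 without replicate 5. The single library with no read allows up to 0.103 CPM, the value of 3 counts in it, which covers counting error only.

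Enzymes of detoxification followed. Cbr3, a carbonyl reductase, had 85.1, 103.7 and 203.9 CPM at 2 mg/kg, against 29.9, 38.9 and 40.9 CPM at 0.5 mg/kg, a rise of 3.29-fold (adjusted p = 5.67e-08). Ephx1, the microsomal epoxide hydrolase, had 342.8, 474.2 and 819.8 CPM at 2 mg/kg, against 122.8, 174.2 and 215.7 CPM at 0.5 mg/kg, a rise of 2.96-fold. In both genes the dose groups did not overlap. Hmox1, the heme oxygenase that makes biliverdin, had 1007.1, 1361.2 and 2079.3 CPM at 2 mg/kg, against 507.0, 665.3 and 727.1 CPM at 0.5 mg/kg, and its log2 change was 1.12 ± 0.16 (adjusted p = 5.37e-06). Pgd, which makes NADPH in the pentose phosphate pathway, rose by 0.98 ± 0.11 on the log2 scale, and Gstm3, a glutathione transferase, by 1.33 ± 0.26. Of the subunits of the enzyme that limits glutathione synthesis, Gclc, the catalytic one, rose by 1.44 ± 0.19 and Gclm, the modifier, by 0.43 ± 0.11. Gclm overlapped between the doses at 366.9 to 633.5 CPM at 2 mg/kg, against 294.8 to 414.3 CPM at 0.5 mg/kg, and in a fit of the 12 libraries alone, replicate 5 included, it was not called (adjusted p = 0.059).

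The promoters of Slc7a11 and Txnrd1, the cytosolic thioredoxin reductase, are shown because both genes rose and matches to stress response elements stand in them. For Txnrd1 the second start in RefSeq is shown. Slc7a11 lies at chr3:50443564-50443863 on the minus strand and Txnrd1 at chr10:82858956-82859255 on the plus strand of GRCm38.p6. Capitals mark in Slc7a11 the 2 matches to the amino acid response element TGATGNAA, found in 3.97% of promoters, and in Txnrd1 the single match to the antioxidant response element core TGACNNNGC, found in 12.4%, both searched on either strand.
Slc7a11: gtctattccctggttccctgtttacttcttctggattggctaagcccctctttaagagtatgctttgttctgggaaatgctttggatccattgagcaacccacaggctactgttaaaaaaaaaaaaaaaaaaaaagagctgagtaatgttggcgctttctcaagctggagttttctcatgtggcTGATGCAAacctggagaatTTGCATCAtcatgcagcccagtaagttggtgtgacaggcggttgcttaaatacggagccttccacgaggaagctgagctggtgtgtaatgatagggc
Txnrd1: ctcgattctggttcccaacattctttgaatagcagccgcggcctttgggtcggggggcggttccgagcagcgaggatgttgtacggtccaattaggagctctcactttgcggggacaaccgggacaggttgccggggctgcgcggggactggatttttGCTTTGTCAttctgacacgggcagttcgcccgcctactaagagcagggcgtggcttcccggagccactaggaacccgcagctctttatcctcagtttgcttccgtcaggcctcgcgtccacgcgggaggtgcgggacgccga

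Txnrd1 had 455.9, 613.0 and 1009.9 CPM at 2 mg/kg, against 294.6, 338.7 and 353.5 CPM at 0.5 mg/kg, without overlap, and rose 2.01-fold. Among the 12 genes with the largest rises 9 had a promoter in the table, of which 1 held the antioxidant response element core, 1 the metal response element core, 2 the heat shock element GAANNTTC (7.86% of all promoters) and 1 the amino acid response element. Among the 12 largest falls 8 had a promoter, of which 2 held the metal response element core and 0 any of the other 3. A gene counts here if any of its starts has a match, while the shares of all promoters count each start, so these are unlike measures.

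**Figure D3:**
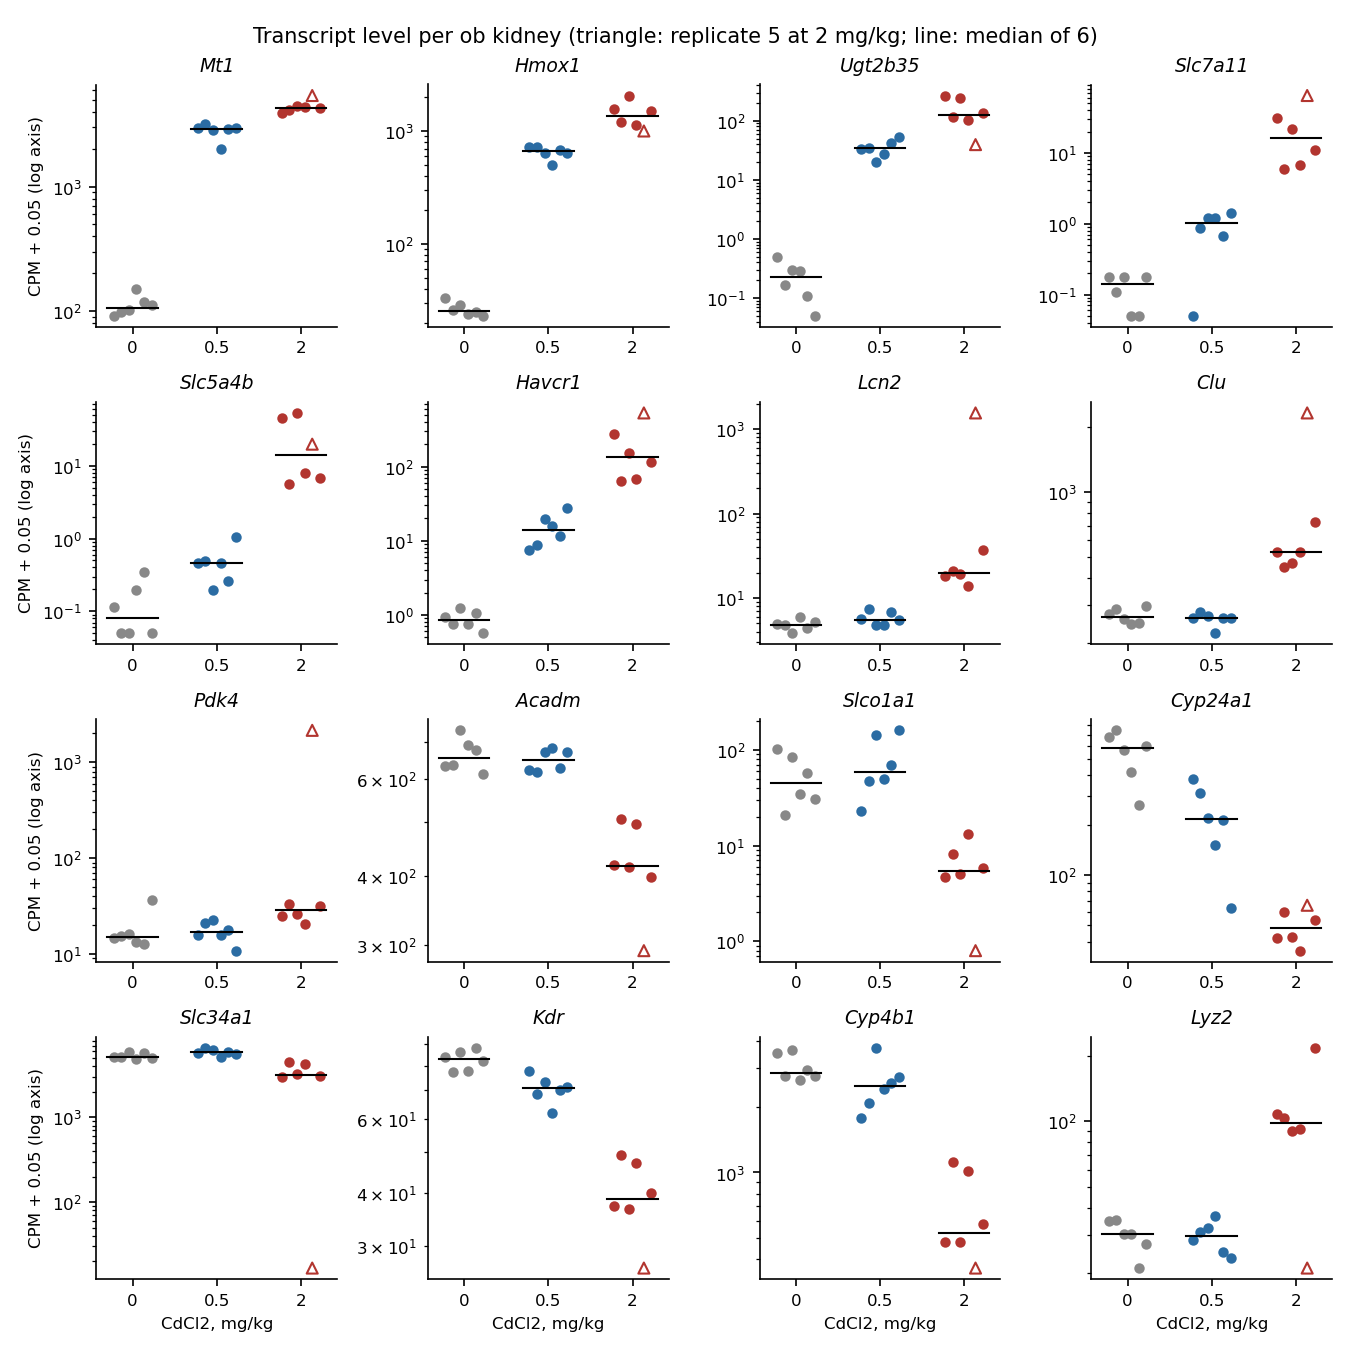
Level of 16 genes in CPM with 0.05 added, on a log axis, in every ob library at 0 (control), 0.5 and 2 mg/kg, with 1 point per library, an open triangle for replicate 5 at 2 mg/kg and a line at the median of 6. Mt1 has medians of 106.0, 2928.2 and 4311.6 CPM in dose order, and the Slc34a1 triangle stands at 16.6 CPM, far below every other point of that gene.

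Conjugating glucuronosyltransferases and hydrolysing carboxylesterases had calls in both directions. Of 22 UDP-glucuronosyltransferases and carboxylesterases tested, 7 were called higher and 4 lower, and 8 and 5 without replicate 5, beside 15.2% of all tested genes higher and 14.5% lower, or 13.4% and 14.3% without it. Ugt2b35 had 39.4, 124.3 and 267.1 CPM at 2 mg/kg, against 20.1, 34.2 and 53.4 CPM at 0.5 mg/kg, with replicate 5 the lowest at 2 mg/kg and the only library of its group within the 0.5 mg/kg range. Its log2 change was 2.10 ± 0.28 (adjusted p = 1.55e-06), and 2.31 ± 0.21 without replicate 5. Its neighbour in the family Ugt2b5 rose by 2.00 ± 0.30, and Ugt2b38 went the other way, with 24.9, 185.2 and 235.4 CPM at 2 mg/kg, against 342.2, 437.9 and 588.0 CPM at 0.5 mg/kg, a log2 change of -1.46 ± 0.27, or -1.22 ± 0.16 without replicate 5. Ces2e, a carboxylesterase, rose by 1.36 ± 0.16. These genes have close copies, and the default counting drops reads that map to several places, so the level of each copy is uncertain.

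The largest rises at a level of at least 5 CPM, ranked without replicate 5, were led by a transporter almost silent at the lower dose. Slc5a4b, a member of the sodium-glucose transporter family, at 76057494-76110961 on chromosome 10, had 5.52, 13.8 and 53 CPM at 2 mg/kg, against 0.144, 0.413 and 1.01 CPM at 0.5 mg/kg. The dose groups did not overlap, and within the higher dose replicates 1 and 3, at 45.4 and 53 CPM, stood above the rest. The change was 52.3-fold (log2 5.71 ± 0.62, adjusted p = 5.67e-08), and 54.6-fold without replicate 5. Slc7a11 and the serine protease inhibitor Serpinb1b came next, Serpinb1b with a log2 change of 4.58 ± 0.57, or 4.19 ± 0.53 without replicate 5, and its relative Serpinb9b rose by 3.38 ± 0.36, or 3.06 ± 0.31 without it. Havcr1 had 63.8, 133.4 and 530.0 CPM at 2 mg/kg, against 7.38, 13.9 and 27.3 CPM at 0.5 mg/kg, with replicate 5 the highest and no overlap. It rose 13.3-fold (adjusted p = 0.000363), and 9.12-fold without replicate 5.

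The rest of the 12 were Ces1b, a carboxylesterase (log2 3.69 ± 0.46), Ly6f, of the Ly6 family of surface proteins (3.55 ± 0.38), Aff2 (3.55 ± 0.40), Dscaml1, a neural adhesion molecule (2.99 ± 0.28), Tg, the thyroglobulin gene (3.08 ± 0.49), H2-Q10, a secreted class I histocompatibility molecule (2.84 ± 0.37), and Gm12498 (2.70 ± 0.46). In each of the 12 all 6 libraries at 2 mg/kg were above all 6 at 0.5 mg/kg, which held for 4.36% of all tested genes. The 12 were picked as the largest called rises in these same libraries, so this separation is not separate evidence. The log2 values in this paragraph are from all libraries, replicate 5 included, so they do not follow the ranked order. Tg is best known from the thyroid, and here it had 3.01 to 10.6 CPM at 2 mg/kg, against 0.444 to 1.17 CPM at 0.5 mg/kg. Gm12498 shares 15.4% of its exon bases with Gm12502 on the opposite strand, and Serpinb1b, Serpinb9b, Ces1b, Ly6f and H2-Q10 have close copies. The default counting drops reads that fall on overlapping genes or map to several places, so the levels of these genes are uncertain.

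The 12 largest falls at a level of at least 5 CPM were also ranked without replicate 5, and Slco1a1 led them. Slco1a1, an organic anion transporter, at 141907282-141946962 on chromosome 6, had 0.748, 5.39 and 13.2 CPM at 2 mg/kg, against 23.2, 59.3 and 160.6 CPM at 0.5 mg/kg, so that the groups did not overlap. It was 13.2-fold lower (log2 -3.73 ± 0.46, adjusted p = 5.45e-07), and 11.1-fold lower without replicate 5. Cyp24a1, the enzyme that breaks down active vitamin D, had 35.2, 48.2 and 66.0 CPM at 2 mg/kg, against 63.3, 219.0 and 381.3 CPM at 0.5 mg/kg, with a log2 change of -2.17 ± 0.39 and an overlap at replicate 5. Cyp4b1, a cytochrome P450 enzyme, had 364.9, 530.6 and 1111.5 CPM at 2 mg/kg, against 1767.8, 2499.5 and 3726.3 CPM at 0.5 mg/kg, with a log2 change of -1.93 ± 0.23.

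The other 9 were Ceacam2, an adhesion molecule (-2.55 ± 0.32), Mettl7a2, a methyltransferase-like gene (-2.50 ± 0.36, with 28.2% of its exon bases in Methig1), C8a, the alpha chain of complement component C8 (-2.33 ± 0.36), Angptl7 (-1.90 ± 0.29), Dpys, of pyrimidine breakdown (-1.90 ± 0.26), Alms1-ps2 (-1.80 ± 0.32), Mogat1, of triglyceride synthesis (-1.47 ± 0.16), Slc7a13, an amino acid transporter of the late proximal tubule (-1.78 ± 0.47), and Inmt, an amine methyltransferase (-1.77 ± 0.43). These 9 log2 values are from all libraries, replicate 5 included, so they do not follow the ranked order, and they are not the sizes ranked. C8a had no read in replicate 5, where 3 counts would be 0.0935 CPM, and 1.61 to 3.57 CPM in the other 5, against 5.86 to 14.4 CPM at 0.5 mg/kg. When the model was fitted to the 12 libraries alone, with replicate 5 kept, Slc7a13 (adjusted p = 0.142) and Inmt (adjusted p = 0.0978) were not called.

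Genes of the p53 response rose in 19 of 22 tested, and in 16 without replicate 5, with a median log2 change of 1.24 and 0.81. None of them fell by the test. Over all tested genes 15.2% were called higher and 14.5% lower, or 13.4% and 14.3% without replicate 5. Those shares are the measure for every list count that follows. Eda2r, a member of the TNF receptor family, had 13.2, 19.1 and 39.2 CPM at 2 mg/kg, against 2.76, 3.19 and 4.72 CPM at 0.5 mg/kg, a rise of 6.23-fold (adjusted p = 8.23e-09). Plk2, a stress-induced kinase, rose 3.76-fold, and Zmat3, an RNA-binding p53 target, 2.49-fold. Ccng1, cyclin G1, had 457.9, 535.6 and 870.9 CPM at 2 mg/kg, against 237.4, 254.2 and 368.3 CPM at 0.5 mg/kg, a rise of 2.21-fold. Replicate 5 was the highest library for each of these 4, and without it the rises were 5.30-, 3.18-, 1.91- and 2.04-fold in that order, still with no overlap.

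Of 30 tubular injury genes, 24 were called higher and 1 lower with replicate 5, and 22 and 2 without it. Besides Havcr1 and Lcn2, Clu, the secreted chaperone clusterin, had 451.8 to 724.8 CPM in 5 libraries at 2 mg/kg and 2324.1 CPM in replicate 5, against 222.9 to 279.8 CPM at 0.5 mg/kg. Its change was 3.24-fold with replicate 5 and 2.11-fold without it. Dcdc2a, a doublecortin family gene, rose by 1.27 ± 0.15, and Anxa2, annexin A2, by 0.99 ± 0.15. Cytoskeletal and epithelial remodelling genes were called higher in 24 of 31 and lower in 2 (20 and 2 without replicate 5), among them the tubulin Tubb2b (1.33 ± 0.20, or 0.98 ± 0.13 without replicate 5), S100a10, the partner of annexin A2 (1.19 ± 0.18), and the galectin Lgals3 (0.98 ± 0.15).

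Cell cycle genes were called higher in 22 of 28 and lower in 1 (20 and 1 without replicate 5). Bub1b, of the spindle checkpoint, had 2.8, 4.84 and 11.6 CPM at 2 mg/kg, against 0.9, 1.88 and 2.34 CPM at 0.5 mg/kg, and rose by 1.73 ± 0.26 on the log2 scale, or 1.41 ± 0.23 without replicate 5. The mitotic kinase Plk1 rose by 1.25 ± 0.27, Rrm2, which supplies deoxynucleotides, by 1.19 ± 0.23, and the replication helicase subunit Mcm6 by 0.43 ± 0.09. Of 26 cell death genes 12 were called higher and 1 lower (10 and 1 without replicate 5), with Mlkl, the executor of necroptosis, at 1.77 ± 0.37, or 0.97 ± 0.25 without replicate 5, and Casp4, the caspase that senses endotoxin, at 1.14 ± 0.23. The immediate early transcription factors were higher in 12 of 18 and lower in 1 with replicate 5, and 8 and 3 without it. Klf6 rose by 1.22 ± 0.23, or 0.70 ± 0.12 without replicate 5, and Klf4 by 1.34 ± 0.28, or 0.71 ± 0.17.

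**Figure D4:**
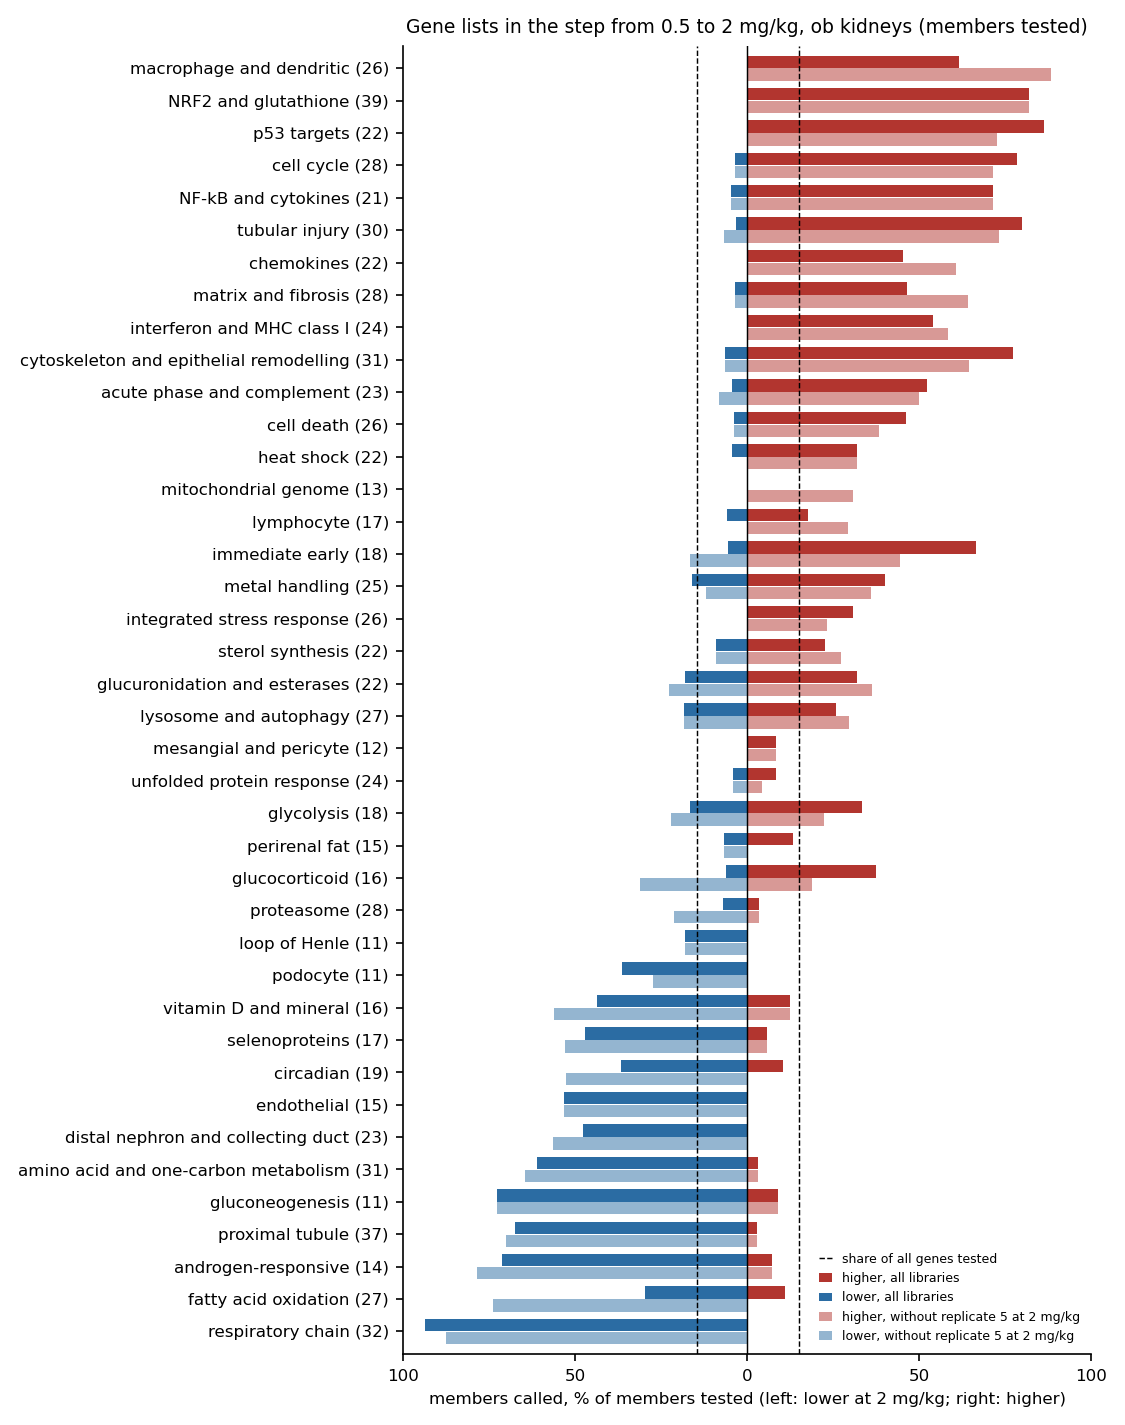
Members of each gene list called higher (right) and lower (left) at 2 mg/kg against 0.5 mg/kg in ob kidneys, as a percent of the members tested (x axis), with all libraries and without replicate 5, and dashed lines at the share of all tested genes called each way. The NRF2 list has 32 of 39 members higher in both fits, and the respiratory chain list has 30 and 28 of 32 lower.

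Genes of the proximal tubule were mostly lower at 2 mg/kg. Of 37 tested, 25 were called lower and 1 higher, and 26 and 1 without replicate 5, with a median log2 change of -0.56 and -0.34. In 19 members every library at 2 mg/kg lay below every library at 0.5 mg/kg, which held for 6.56% of all tested genes, and without replicate 5 this was again 19 members, beside 8.01% of all genes. Slc27a2, a very-long-chain fatty acid importer and ligase, had 828.9, 1180.8 and 1887.7 CPM at 2 mg/kg, against 2515.7, 2894.9 and 3343.3 CPM at 0.5 mg/kg, and was 2.21-fold lower (adjusted p = 6.71e-08). Kap, the androgen-regulated kidney protein, had 2307.9 to 7529.7 CPM in 5 libraries at 2 mg/kg and 328.5 CPM in replicate 5, against 9117.4 to 14557.4 CPM at 0.5 mg/kg, a log2 change of -1.55 ± 0.33, or -1.29 ± 0.21 without replicate 5. The aspartic protease Napsa fell by 1.02 ± 0.13 and Cyp2e1, a cytochrome P450 enzyme, by 1.18 ± 0.27. Slc34a1 was not called with replicate 5 (log2 -0.97 ± 0.43, adjusted p = 0.0845) and was called without it (-0.69 ± 0.09, adjusted p = 9.65e-07). In a fit of the 12 libraries alone that kept replicate 5, Kap (adjusted p = 0.0672) and Cyp2e1 (adjusted p = 0.073) were not called.

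Some metabolic lists were mostly lower too. Amino acid and one-carbon metabolism had 19 of 31 members lower and 1 higher (20 and 1 without replicate 5). Kmo, of tryptophan breakdown, had 5.48, 41.0 and 61.1 CPM at 2 mg/kg, against 111.6, 128.4 and 149.7 CPM at 0.5 mg/kg, and fell by 1.67 ± 0.26, or 1.43 ± 0.14 without replicate 5. Fah, of tyrosine breakdown, fell by 0.79 ± 0.12, and the exception that rose was Arg2, the mitochondrial arginase, at 2.57 ± 0.49, or 1.02 ± 0.24 without replicate 5, with 28.1% of its exon bases shared with other genes. Gluconeogenesis had 8 of 11 lower and 1 higher in both fits. Fbp1, fructose-1,6-bisphosphatase, had 322.0, 599.5 and 856.0 CPM at 2 mg/kg, against 969.2, 1151.0 and 1250.5 CPM at 0.5 mg/kg, and fell by 0.89 ± 0.14. Khk, ketohexokinase, fell by 0.82 ± 0.12, and Slc38a3, a glutamine transporter, rose by 0.72 ± 0.13.

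Nuclear genes of the respiratory chain fell in small, even steps. Of 32 tested, 30 were called lower and 0 higher, and 28 and 0 without replicate 5, with a median log2 change of -0.31 and -0.25. Scaled by library size alone 21 were lower and 0 higher. Ndufa1, of complex I, had 45.7, 58.8 and 76.4 CPM at 2 mg/kg, against 84.9, 94.6 and 101.2 CPM at 0.5 mg/kg, a log2 change of -0.62 ± 0.09. Ndufa5 (-0.55 ± 0.09), Ndufb10 (-0.44 ± 0.07) and Ndufa4 (-0.35 ± 0.06) were also lower. Of the 13 protein genes of the mitochondrial genome, 0 were called in either direction with all libraries and 4 higher without replicate 5, and no test set them against the nuclear genes. Their summed level was 56188.2 to 108737.3 CPM at 2 mg/kg, with replicate 5 the lowest, against 86204.9 to 102830.8 CPM at 0.5 mg/kg.

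Fatty acid oxidation depended on replicate 5. With it 8 of 27 genes were lower and 3 higher, and without it 20 were lower and 0 higher, with a median log2 change of 0.01 and -0.35. Acadm, the medium-chain acyl-CoA dehydrogenase, had 293.0, 416.7 and 508.2 CPM at 2 mg/kg, against 617.7, 648.4 and 683.1 CPM at 0.5 mg/kg, and fell by 0.62 ± 0.10 or 0.52 ± 0.09. Acadl, the long-chain enzyme, had 135.1 to 218.1 CPM in 5 libraries and 310.2 CPM in replicate 5, against 271.4 to 305.3 CPM at 0.5 mg/kg, so that only replicate 5 lay above the lower dose. Its log2 change was -0.50 ± 0.12 with replicate 5 and -0.66 ± 0.09 without it, and the 12 libraries alone with replicate 5 did not call it (adjusted p = 0.0878). The glucocorticoid-responsive list turned in the same way, with 6 of 16 higher and 1 lower with replicate 5 and 3 higher and 5 lower without it, and its members Pdk4 and Lcn2 are among those described for replicate 5. Errfi1, a feedback inhibitor of EGF receptor signalling, fell in both fits, by 0.82 ± 0.13 and 1.01 ± 0.10, and the mTOR inhibitor Ddit4 rose by 0.92 ± 0.19 and 0.62 ± 0.14.

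Androgen-responsive genes were lower in 10 of 14 and higher in 1 (11 and 1 without replicate 5), with a median log2 change of -1.33 and -1.21. Besides Kap and Cyp4b1, Cyp7b1, an oxysterol hydroxylase, fell by 1.53 ± 0.29 and the prolactin receptor Prlr by 1.45 ± 0.31, and the exporter Abcc3 rose by 1.70 ± 0.25, or 1.29 ± 0.19 without replicate 5. Vitamin D and mineral genes were lower in 7 of 16 and higher in 2 (9 and 2 without replicate 5). Pth1r, the parathyroid hormone receptor, fell by 0.81 ± 0.16 and Slc34a3, a phosphate transporter, by 1.13 ± 0.29, or 0.86 ± 0.13 without replicate 5, and Slc20a1, another phosphate transporter, rose by 0.84 ± 0.15. Selenoproteins were lower in 8 of 17 and higher in 1, which was Txnrd1 (9 and 1 without replicate 5). Gpx3, the secreted glutathione peroxidase made in the proximal tubule, had 10654.3, 16662.2 and 20108.8 CPM at 2 mg/kg, against 24299.9, 30025.2 and 35287.9 CPM at 0.5 mg/kg, and was 1.87-fold lower (adjusted p = 9.41e-07). In the fit of the 12 libraries alone that kept replicate 5, Slc34a3 was not called (adjusted p = 0.117).

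Circadian genes were lower in 7 of 19 and higher in 2 (10 and 0 without replicate 5), among them the output factors Hlf and Tef. Hlf had 7.35, 24.6 and 43.0 CPM at 2 mg/kg, against 76.0, 88.5 and 93.6 CPM at 0.5 mg/kg, and fell by 1.68 ± 0.22, and Tef, Dbp and Usp2 fell by 0.78 ± 0.10, 0.97 ± 0.25 and 0.90 ± 0.13. The hour of collection is not given in the sources used here, and its part in these values was not tested.

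Beyond the proximal tubule, distal nephron and collecting duct genes were lower in 11 of 23 and higher in 0 (13 and 0 without replicate 5). Klk1, tissue kallikrein, had 513.3, 1227.2 and 1322.0 CPM at 2 mg/kg, against 1785.8, 2069.6 and 2246.9 CPM at 0.5 mg/kg, and fell by 0.90 ± 0.14, or 0.74 ± 0.09 without replicate 5. Aqp3, a collecting duct water channel, fell by 0.64 ± 0.13, Hsd11b2, which inactivates cortisol and corticosterone, by 0.59 ± 0.11, and the proton pump subunit Atp6v1g3 by 0.38 ± 0.09. In the loop of Henle list 2 of 11 were lower and 0 higher in both fits, and 0 in either direction when scaled by library size alone. Among all tested genes 14.5% were lower, or 14.3% without replicate 5, so the loop of Henle count was near that share. Umod, uromodulin, had 1620.6 to 2048.1 CPM in 5 libraries at 2 mg/kg and 983.1 CPM in replicate 5, against 1536.5 to 2483.3 CPM at 0.5 mg/kg, a log2 change of -0.16 ± 0.16 (adjusted p = 0.48).

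Endothelial markers were lower in 8 of 15 and higher in 0 in both fits. All tested genes had 14.5% lower and 15.2% higher, or 14.3% and 13.4% without replicate 5. Kdr, the VEGF receptor of vessels, had 26.5, 38.5 and 49.1 CPM at 2 mg/kg, against 61.9, 70.8 and 77.8 CPM at 0.5 mg/kg, without overlap, and fell by 0.84 ± 0.11, or 0.73 ± 0.10 without replicate 5. Ehd3 (-0.80 ± 0.15), Plvap (-0.52 ± 0.09) and Flt1 (-0.46 ± 0.08) fell as well. Pecam1, a marker of all endothelium, had a log2 change of -0.19 ± 0.10 (adjusted p = 0.131), and the list's summed level was 399.8 to 774.1 CPM at 2 mg/kg, against 776.3 to 919.9 CPM at 0.5 mg/kg. In podocytes, the filter cells of the glomerulus, 4 of 11 markers were lower (3 without replicate 5) and 0 higher, and Podxl, their surface sialoprotein, fell by 0.48 ± 0.08, or 0.41 ± 0.07 without replicate 5. Of 12 mesangial and pericyte markers 1 was called, Cspg4, which was higher at 0.48 ± 0.12.

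Markers of macrophages and dendritic cells were called higher in 16 of 26 with replicate 5 and in 23 without it, and in none lower. Lyz2, lysozyme, had 90.1 to 217.8 CPM in 5 libraries at 2 mg/kg and 21.1 CPM in replicate 5, against 23.6 to 36.8 CPM at 0.5 mg/kg, and rose 3.57-fold, or 4.19-fold without replicate 5. Cd68 ran the other way in that library, with 45.0 CPM in replicate 5 and 5.89 to 9.84 CPM in the other 5, against 3.92 to 5.0 CPM at 0.5 mg/kg, and log2 changes of 1.77 ± 0.32 with it and 0.97 ± 0.17 without it. The summed level of the list was 886.4 to 1416.2 CPM in 5 libraries and 285.7 CPM in replicate 5, against 487.7 to 670.6 CPM at 0.5 mg/kg. Plac8 rose by 0.87 ± 0.11 and Cd14, the endotoxin co-receptor, by 1.71 ± 0.28, or 1.03 ± 0.15 without replicate 5.

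The summed levels of the other cell type lists are given beside this, since a kidney piece can carry blood, fat, adrenal gland or ureter. Their counts of calls stand beside 15.2% of all tested genes higher and 14.5% lower, or 13.4% and 14.3% without replicate 5. Lymphocyte markers summed to 32.1 to 277.5 CPM in 5 libraries at 2 mg/kg and 4.95 CPM in replicate 5, against 23.4 to 50 CPM at 0.5 mg/kg, with Ighm, the IgM heavy chain, at 163.0 CPM in replicate 1, and 3 of 17 were higher and 1 lower (5 and 0 without replicate 5). Without replicate 1 at 2 mg/kg the log2 change of Ighm was 0.28 (adjusted p = 0.677), against 1.73 with it. Red cell markers summed to 143.2 to 361.3 CPM in 5 libraries and 19.1 CPM in replicate 5, against 317.8 to 613.8 CPM at 0.5 mg/kg, and 3 of 8 were lower and 1 higher (5 and 0 without replicate 5). Fat cell markers summed to 436.3 to 544.9 CPM in 5 libraries at 2 mg/kg and 972.3 CPM in replicate 5, against 446.4 to 693.0 CPM at 0.5 mg/kg, and 2 of 15 were higher and 1 lower (0 and 1). Adrenal markers summed to at most 7.14 CPM at 2 mg/kg and 5.04 CPM at 0.5 mg/kg, and 2 of the 11 had no read in the 12 libraries. Urothelial markers summed to 21.0 to 56.5 CPM at 2 mg/kg, against 8.03 to 65.5 CPM at 0.5 mg/kg, and 1 of 9 was higher with replicate 5 and 0 without it. Neutrophil markers summed to 18 to 42.1 CPM in 5 libraries at 2 mg/kg and 1574.0 CPM in replicate 5, against 7.24 to 11.4 CPM at 0.5 mg/kg, without overlap. They were called higher in 2 of 6 (1 without replicate 5), and the 1 called in both was Lcn2, which tubule cells also make. Lcn2 alone had 1558.2 CPM of the sum in replicate 5. The median log2 change of the 6 was 0.40, and -0.06 without replicate 5, so the sums do not show a rise across the list. The part of these cells in the results was not tested.

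Chemokine genes were higher in 10 of 22 and lower in 0 with replicate 5, and in 14 of 23 without it. Cxcl2 and Cxcl1, which draw neutrophils, rose by 3.52 ± 0.66 and 1.68 ± 0.33, or 3.08 ± 0.64 and 1.51 ± 0.33 without replicate 5. Ccl8 and Ccl9, which draw monocytes among others, rose by 2.58 ± 0.58 and 1.72 ± 0.30, or 2.85 ± 0.50 and 1.91 ± 0.28 without it. NF-kB and cytokine genes were higher in 15 of 21 and lower in 1 in both fits. Csf1, the growth factor of macrophages, had 19.2, 25.7 and 35.1 CPM at 2 mg/kg, against 9.89, 10.7 and 14.3 CPM at 0.5 mg/kg, and rose by 1.20 ± 0.17, with Relb (0.96 ± 0.12), Nfkb2 (0.77 ± 0.11) and the adhesion molecule Icam1 (0.86 ± 0.14). Acute phase and complement genes were higher in 12 of 23 and lower in 1 (12 and 2 of 24 without replicate 5). C3, the central complement component, had 122.9, 242.2 and 437.1 CPM at 2 mg/kg, against 53.9, 71.3 and 87.1 CPM at 0.5 mg/kg, a rise of 3.63-fold, or 3.17-fold without replicate 5. The regulator Cfi rose by 1.41 ± 0.21, and Socs3, an inhibitor of cytokine signalling, by 2.06 ± 0.33, or 1.24 ± 0.19 without replicate 5.

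Interferon and class I genes were higher in 13 of 24 and lower in 0 (14 and 0 without replicate 5), with Ifit2 at 0.91 ± 0.16 and Bst2 at 0.64 ± 0.14. Matrix and fibrosis genes were higher in 13 of 28 and lower in 1 (18 and 1 without replicate 5). Timp1, an inhibitor of matrix proteases, had 1.47, 4.33 and 7.76 CPM at 2 mg/kg, against 0.483, 1.02 and 1.31 CPM at 0.5 mg/kg, and rose 4.34-fold. The protease Mmp14 rose by 0.89 ± 0.15 and the basement membrane collagen Col4a2 by 0.39 ± 0.07.

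Other stress pathways had smaller shares of members called than NRF2 and p53. Beside them, 15.2% of all tested genes were higher and 14.5% lower, or 13.4% and 14.3% without replicate 5. The integrated stress response had 8 of 26 higher and 0 lower (6 and 0 without replicate 5). Aldh1l2, a mitochondrial folate enzyme, had 3.61, 10.6 and 12.2 CPM at 2 mg/kg, against 2.17, 2.57 and 3.06 CPM at 0.5 mg/kg, and rose by 1.85 ± 0.24. Gdf15, a stress cytokine, rose by 1.26 ± 0.24, or 1.02 ± 0.21 without replicate 5, and Phgdh, of serine synthesis, by 0.93 ± 0.20. Heat shock genes were higher in 7 of 22 and lower in 1 (7 and 0 without replicate 5), led by Hsp90aa1 at 0.68 ± 0.10 and the small chaperone Hspb8 at 1.04 ± 0.17. The unfolded protein response had 2 of 24 higher and 1 lower (1 and 1 without replicate 5), and Herpud1, of protein disposal at the endoplasmic reticulum, had 226.8 to 319.3 CPM in 5 libraries at 2 mg/kg and 462.4 CPM in replicate 5, against 380.4 to 474.1 CPM at 0.5 mg/kg, a log2 change of -0.53 ± 0.12, or -0.69 ± 0.08 without replicate 5. In a fit of the 12 libraries alone, replicate 5 included, it was not called (adjusted p = 0.0591).

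Proteasome genes were higher in 1 of 28 and lower in 2 (1 and 6 without replicate 5). Lysosome and autophagy genes were higher in 7 of 27 and lower in 5 (8 and 5). Sterol synthesis genes were higher in 5 of 22 and lower in 2 (6 and 2), with Dhcr7, the last enzyme of cholesterol synthesis, at 0.74 ± 0.12. Glycolysis genes were higher in 6 of 18 and lower in 3 (4 and 4), with the glucose transporter Slc2a1 at 0.57 ± 0.12, or 0.41 ± 0.09 without replicate 5, and Pfkm, a phosphofructokinase, at -0.58 ± 0.11. These 4 lists held calls in both directions, as did several other lists. Over all tested genes 15.2% were higher and 14.5% lower, or 13.4% and 14.3% without replicate 5.

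The step from 0.5 to 2 mg/kg was also set against the same step in b6j kidneys, to ask which genes moved by a different amount in ob kidneys. The b6j step had 3143 genes called with all 36 libraries in the model (17.3%), 1596 higher (8.78%) and 1547 lower (8.51%), and 5267 (28.7%) without ob replicate 5, which shares the estimate of spread. Without that library, 67.2% of the ob calls were called in the same direction in b6j, and 64.8% of the b6j calls in ob. A single gene was called in opposite directions, Gjc1, a connexin, with 3.09 to 4.71 CPM in ob kidneys at 2 mg/kg, against 4.41 to 5.29 CPM at 0.5 mg/kg, and 3.02 to 4.87 CPM in b6j kidneys at 2 mg/kg, against 2.47 to 3.87 CPM at 0.5 mg/kg.

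Tested directly as the ob step minus the b6j step, the difference was called for 51 genes (0.281%), 4 positive (0.0220%) and 47 negative (0.259%). Without replicate 5 it was called for 82 (0.446%), 9 positive (0.0490%) and 73 negative (0.397%). The same 49 were called with and without it, 46 negative and 3 positive. A fit of the ob and b6j libraries of these doses alone called 26, 0 of them positive, and 67 without replicate 5, 6 of them positive. With all libraries DESeq2 called 101, limma-voom called 102, and leaving out replicate 1 of b6j at 2 mg/kg left 32. Of the 46 negative in both, 33 were higher at 2 mg/kg in both genotypes and rose less in ob, and 29 of those 33 were called in both steps. Of the 39 NRF2 and glutathione genes 9 were among the 49, all negative: Hmox1, Gstm1, Gstm3, Gsta1, Gsta2, Gsta4, Cbr3, Akr1c13 and Abcc4. Hmox1 had medians of 1361.2 CPM at 2 mg/kg and 665.3 CPM at 0.5 mg/kg in ob kidneys, and 1332.3 CPM and 117.2 CPM at these doses in b6j kidneys. The 2 genotypes thus stood close at the higher dose and apart at the lower, and the difference of the log2 changes was -2.37 ± 0.23 (adjusted p = 3.7e-08).

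Further large differences were negative as well. At 2 and 0.5 mg/kg in that order, Ugt2b35 had medians of 124.3 and 34.2 CPM in ob kidneys, against 96.6 and 0.954 CPM in b6j kidneys (difference -4.39 ± 0.44, adjusted p = 5.77e-08). Gstm3 had 63.0 and 24.3 CPM in ob kidneys, against 29.9 and 1.08 CPM in b6j kidneys (difference -3.35 ± 0.40). Cbr3 had 103.7 and 38.9 CPM in ob kidneys, against 71.7 and 3.83 CPM in b6j kidneys (difference -2.48 ± 0.27). By these medians ob was the higher genotype at both doses in the 3 genes. Ces1a (-4.38), the pseudogene Gm7893 (-4.16) and 9130409I23Rik (-3.40) complete the 5 largest negative differences by the naming rule with Ugt2b35 and Gstm3.

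**Figure D5:**
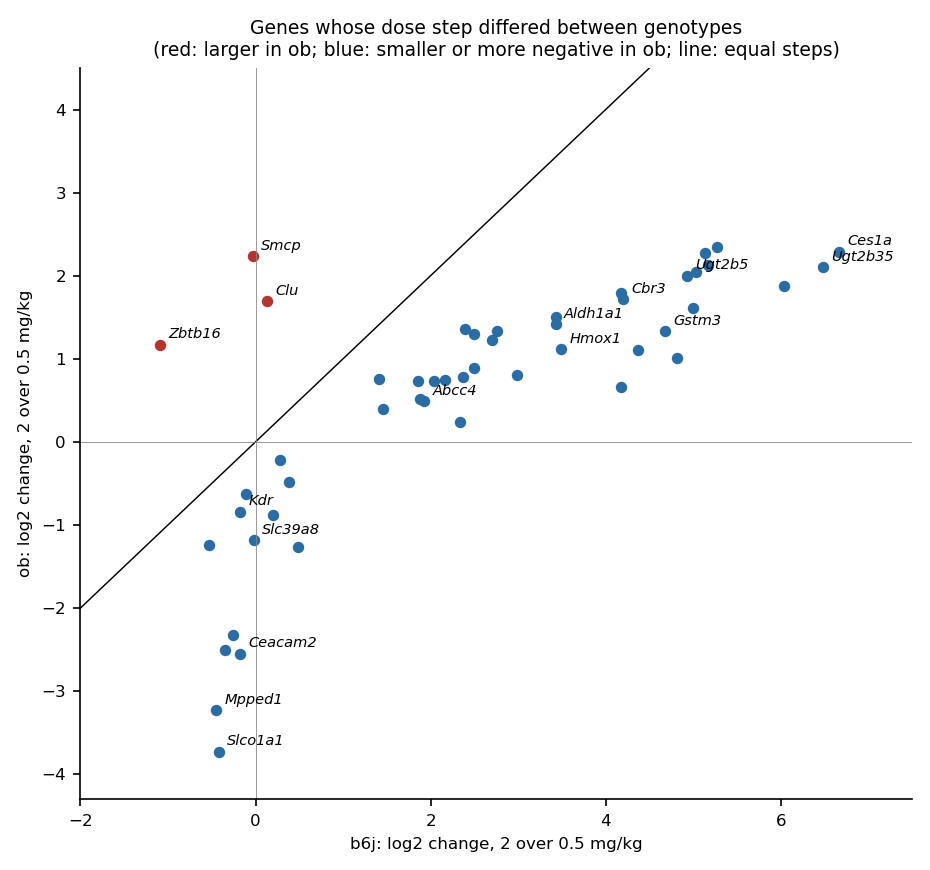
Log2 change at 2 mg/kg over 0.5 mg/kg in ob kidneys (y axis) against b6j kidneys (x axis), with all libraries, for the 49 genes whose difference between the genotypes was called with and without ob replicate 5, and the line of equal steps. The 46 negative differences lie below the line, in a set to the right with Hmox1 at 3.49 for b6j and 1.12 for ob and a set below 0 for ob with Slco1a1 at -3.73, and the 3 positive ones lie above it.

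The other 13 negative differences were in genes called lower at 2 mg/kg in ob kidneys with all libraries. Of these, Rhoq (-0.22, adjusted p = 0.0317) was not called in ob without replicate 5 (-0.15, adjusted p = 0.134) or by DESeq2 (adjusted p = 0.0589). Slco1a1 had medians of 5.39 CPM at 2 mg/kg and 59.3 CPM at 0.5 mg/kg in ob kidneys, and 228.0 and 320.8 CPM in b6j kidneys, where its log2 change was -0.42 ± 0.40 (adjusted p = 0.53). The difference was -3.30 ± 0.60 (adjusted p = 0.00343), called whichever of the 24 libraries was left out (adjusted p at most 0.0109), though not by limma-voom (adjusted p = 0.1). Slc39a8 had medians of 24.4 and 51.4 CPM in ob kidneys, and 73.5 and 73.2 CPM in b6j kidneys, and the difference was -1.16 ± 0.25 (adjusted p = 0.0228), lost when any of 6 of the 24 libraries was left out (adjusted p up to 0.0647). Kdr had medians of 38.5 and 70.8 CPM in ob kidneys, and 46.7 and 51.0 CPM in b6j kidneys, with a difference of -0.66 ± 0.15 (adjusted p = 0.0485), lost when any of 18 was left out (adjusted p up to 0.122). The rest were Mpped1, Ceacam2, Mettl7a2, C8a, Mcoln2, Abcb1a, Gjc1, Npr2, Cdo1 and Rhoq. The call was lost when any of 20 of the 24 libraries was left out for Abcb1a, 17 for C8a, 17 for Mcoln2, 15 for Mettl7a2 and 13 for Rhoq. For Gjc1 it was lost with any of 4 and for Npr2 with any of 3, and for Mpped1 and Ceacam2 with 0. Cdo1, which starts taurine synthesis from cysteine, had medians of 84.5 and 134.3 CPM in ob kidneys, and 132.4 and 141.6 CPM in b6j kidneys, and its difference was lost when any of 4 libraries was left out.

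The 3 positive differences were Clu, Zbtb16 and Smcp. Clu had medians of 529.3 CPM at 2 mg/kg and 261.2 CPM at 0.5 mg/kg in ob kidneys, and 303.3 and 284.3 CPM in b6j kidneys, and its difference was 1.57 ± 0.36 (adjusted p = 0.0406), or 0.95 ± 0.18 (adjusted p = 0.00373) without replicate 5. It was lost when any of 16 of the 24 libraries was left out (adjusted p up to 0.0827). Of the 32 named genes with a called difference, 17 were called whichever library was left out. Zbtb16, a glucocorticoid-induced factor, was higher in the ob step with replicate 5 (1.17 ± 0.33) and not called without it (0.55 ± 0.26, adjusted p = 0.11), and it fell in the b6j step (-1.09 ± 0.34). The metallothionein step was not called as different: for Mt1 the difference was -0.52 ± 0.19 (adjusted p = 0.384) and for Havcr1 it was 0.81 ± 0.97 (adjusted p = 0.814), which does not show that the genotypes moved alike.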

How the data were processed

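Kidney total RNA was sequenced in 36 libraries of 6 groups. Per the labels' protocols it was extracted with TRIzol from snap frozen tissue. The submitters' processing notes name bcl2fastq, Trimmomatic, FastQC, STAR and GRCm38. The deposited files hold raw read counts per gene, made per the file headers with featureCounts 1.4.6-p2 over Ensembl 96 exons with default settings. Those settings ignore strand and drop reads that map to several places or to overlapping genes. All 55536 gene IDs matched GENCODE M21. The 36 columns of a joined table were not used.

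Counts were filtered with filterByExpr, scaled by TMM and fitted with edgeR 4.0.16 (R 4.3.3) in a model of the 6 groups over all 36 libraries, with limma 3.58.1 and DESeq2 1.42.0 as alternatives. The steps were tested on simulated counts with known changes. Those counts had the same dispersion for every gene and no library that stood apart, so they do not test the effect of replicate 5. Calls needed an adjusted p under 0.05.

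The comparison, gene lists and tests were chosen with earlier results of these data known, and within the comparison the libraries were taken by their labels. Genes were named by rule: the 12 largest rises and falls called with and without replicate 5 at a mean of at least 5 CPM, 8 fixed genes (Mt1, Mt2, Hmox1, Gstm3, Ugt2b35, Slc39a10, Havcr1 and Lcn2), from each of 44 lists the members of lowest p (at most 4), the 8 largest shifts without replicate 5, and up to 5 differences between genotypes in each direction. Plin2, Gclc, Gclm, tissue markers and the genes listed by name in small sets were chosen after their values were seen. Some genes the rule names are not reported here. Promoter sequences are from RefSeq, for 152 of 204 genes the rule names. Alternatives changed the tool, scaling, filter, libraries in the fit, replicate block and each library in turn. Counts from 26783936 to 37244058 reads per library set the precision, and reads without molecular identifiers are not independent molecules.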

Additional observations from a re-analysis of the deposited data

Results flagged for a closer look

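Single libraries stood apart from the rest of their group of 6, by a gap larger than 0.625 of the group's range, in 48 of 314 gene and group pairs over 157 genes named, and chance alone puts about 1 in 20 groups there. Some of these genes were chosen for their shift without replicate 5 or after their values were seen, so the count cannot be set against that share. Of these, 29 were replicate 5 at 2 mg/kg. In CPM it was the high library for Abcc3 at 73.2, Arg2 at 71.6, Cd14 at 58.8, Cd68 at 45.0, Clu at 2324.1, Crabp1 at 73.7, Ddit4 at 96.4, Gdf15 at 146.9, Klf4 at 67.1, Klf6 at 250, Krt20 at 360.1, Lcn2 at 1558.2, Mlkl at 22.4, Mt1 at 5414.0, Pdk4 at 2156.2, Plin2 at 1607.8, Slc2a1 at 111.2, Smcp at 8.1, Socs3 at 54.6, Tubb2b at 85.9, Zbtb16 at 89.7 and Zmat3 at 158.2. It was the low library for Klk1 at 513.3, Lrp2 at 292.7, Podxl at 120.9, Slc12a3 at 47.9, Slc34a1 at 16.6, Slc34a3 at 1.9 and Ugt2b38 at 24.9.

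The other 3 at 2 mg/kg, in CPM, were Gjc1 at 4.71 in replicate 6, H2-Q10 at 25.8 in replicate 1 and Ighm at 163.0 in replicate 1. At 0.5 mg/kg, 16 stood apart, again in CPM. They were replicate 1 for Cd68 at 5.0 and Pfkm at 46.2, replicate 2 for Bst2 at 52.2, replicate 3 for Acadl at 305.3 and Inmt at 1260.9. The rest were replicate 4 for Cdo1 at 163.0, Ceacam2 at 38.5, Clu at 222.9, Mt1 at 2025.7 and Pth1r at 513.9, replicate 5 for Ighm at 22.5, and replicate 6 for Ccng1 at 368.3, Dpys at 44.1, Gclm at 414.3, Rhoq at 102.5 and Slc5a4b at 1.01.

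The test of the difference itself, the ob step minus the b6j step in edgeR's quasi-likelihood model with all libraries, put 32 named genes under an adjusted p of 0.05. The log2 differences from Ugt2b35 to C8a were -4.39 for Ugt2b35, -4.38 for Ces1a, -4.16 for Gm7893, -3.40 for 9130409I23Rik, -3.35 for Gstm3, -3.30 for Slco1a1, -2.99 for Gsta1, -2.93 for Ugt2b5, -2.78 for Mpped1, -2.48 for Cbr3, -2.37 for Hmox1, -2.37 for Ceacam2, -2.15 for Mettl7a2 and -2.07 for C8a. The smaller negative ones were -1.75 for Mcoln2, -1.60 for Gsta4, -1.45 for Abcc4, -1.44 for Gstm1, -1.16 for Slc39a8, -1.08 for Abcb1a, -1.06 for Gsta2, -1.02 for Ces2e, -0.87 for Gjc1, -0.71 for Npr2, -0.66 for Kdr, -0.66 for Akr1c13, -0.52 for Cdo1 and -0.50 for Rhoq. The positive ones were 1.57 for Clu, 4.76 for Pdk4, 2.27 for Smcp and 2.26 for Zbtb16. Without replicate 5 of the ob 2 mg/kg group that of Pdk4 was 0.97 (adjusted p = 0.425). Those of Smcp and Zbtb16 were then 1.80 and 1.65.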

How the results depend on the processing

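Of 157 named genes, 137 kept their direction and their side of an adjusted p of 0.05 in the ob step under every alternative, and 146 did so when the fit of the 12 libraries alone with replicate 5 kept is set aside. In that fit 18 genes kept their direction and lost their call, against 3 in the fit of the same groups without replicate 5. Plin2 reversed in the latter fit and was not called there either (log2 -0.20, adjusted p = 0.0587). Both of these fits estimate the spread from fewer samples than the fit of all libraries. Counts of calls moved by more than 1.5 times as follows, with the cause not tested. In the ob step, scaling by library size alone gave 4303 higher and 1683 lower, against 2772 and 2634 with TMM. The 12 libraries alone gave 1889 in all, 1091 higher and 798 lower. For the difference between genotypes, against 51, DESeq2 gave 101, limma-voom with sample weights 102, the compared groups alone 26, or 67 in them without ob replicate 5 at 2 mg/kg, and the fit without ob replicate 5 at 2 mg/kg 82, and without b6j replicate 1 at 2 mg/kg it was 32. For the b6j step, against 3143, limma-voom gave 5176 and the fit without ob replicate 5 gave 5267, and library size alone gave 2733 higher and 778 lower, against 1596 and 1547. Leaving out each library in turn gave 4685 to 5965 calls in the ob step, 2362 to 3341 higher and 2261 to 2866 lower, 32 to 82 for the difference, and 2378 to 5267 for the b6j step. The b6j step has no value for the compared groups without ob replicate 5, since its groups do not hold that library.

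The change reversed in 1 named gene, Plin2. Its log2 change, 1.59 with all libraries, was -0.21 with limma-voom and -0.20 in each of the fits without replicate 5, with or without the block, and -0.20 to 1.81 over the libraries left out in turn. Across the 44 lists, 15 had a count of members called that moved by more than 1.5 times without replicate 5.

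The labels do not say whether the replicate numbers pair the samples. Libraries of the same number had correlations of their deviations of -0.02 to 0.07, and 2 of 6 correlated best with their own number. This check found little sign of pairing and cannot show that there was none. With the replicate block the ob step had 5038 calls, 2475 higher and 2563 lower, and 4892 (2368 and 2524) without replicate 5. The difference had 43 and 66 in these fits, and the b6j step 2898 and 5138. The block without replicate 5 was an alternative chosen after seeing the data. Depth limits the genes near the floor of 3 counts, and that floor covers counting error only.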
